A study of Mus musculus with 12 samples.

Results

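Transcripts of the proteasome subunit genes were followed in mouse blastocysts kept with or without an inhibitor of p38 mitogen-activated protein kinases (p38-MAPKi), in a study of how these kinases act during early blastocyst maturation. The members were all genes whose symbol is Psma, Psmb, Psmc or Psmd followed by a number, which picked 39 of the 34245 genes in the expression table, 19 of the core particle and 20 of the regulatory particle. Hybrid F1 mice (C57Bl6 x CBA/W) were mated, their 2-cell embryos were taken from the oviduct and grown in KSOM medium with amino acids to embryonic day 3.5 (E3.5), the early blastocyst. Pools of 30 embryos were then moved to 20 µM SB220025 in DMSO (p38-MAPKi) or to the DMSO solvent alone (control), and poly(A) RNA was sequenced after a further 4, 7 or 10 h. The 6 groups held 2 libraries each, 12 in all, described as biological duplicates. Every embryo of a pool contributed to 1 RNA sample, so each value is an average over whole blastocysts.

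The 26S proteasome degrades proteins that carry ubiquitin chains. Its barrel-shaped core particle is built of stacked rings of alpha (Psma) and beta (Psmb) subunits, and the proteolytic sites sit on the inner face of the beta subunits Psmb5, Psmb6 and Psmb7. The regulatory particle caps the barrel: a ring of ATPases (Psmc) unfolds the substrate and opens the gate, and the non-ATPase subunits (Psmd) bind ubiquitin chains and cut them off. In cells exposed to interferon the catalytic beta subunits can be replaced by the immunoproteasome subunits Psmb8, Psmb9 and Psmb10.

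All libraries together are described by a few facts. Recovered read totals ran from 11242313 to 24457312 per library, the lowest in p38-MAPKi replicate 1 at E3.5 + 7 h, which had reads for 14049 genes against 16391 to 17693 genes in the other libraries. Trophectoderm markers summed to 1770 to 2596 RPKM (read density per kilobase of exon, scaled to the depth of the library), epiblast markers to 556 to 717 RPKM and primitive endoderm markers to 116 to 189 RPKM. The first sum was mostly Krt8 and Krt18, with Elf5 under 1 RPKM in every library. The last was mostly Gata6 (80.9 to 129 RPKM) and Dab2 (24 to 58.7 RPKM). Gata4 was at 1.07 to 3.86 RPKM, Sox17 at 1.16 to 4.38 RPKM and Sox7 under 1 RPKM. The study describes GATA6 in uncommitted inner cells as well, so this sum does not show specified primitive endoderm in each library. Levels are relative to all sequenced RNA of a library, no RNA was spiked in, and fewer cells of a type cannot be told apart from less RNA per cell in such pools.

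In control embryos nearly all constitutive subunits were among the most abundant transcripts. Levels are given here as RPKM, which corrects for exon length, as the mean ± SD of the 6 control libraries. In the alpha ring Psma6 was highest with 338 ± 32.2 RPKM and Psma3 lowest with 35.1 ± 2.61 RPKM, a 9.63-fold range. In the beta ring Psmb4, a structural subunit, led with 393 ± 38.5 RPKM and Psmb3 was lowest with 85.9 ± 11.9 RPKM. Subunits that occur once per ring therefore differed several-fold in transcript level. The ATPases ran from 329 ± 17.4 RPKM for Psmc5 to 86.7 ± 5.93 RPKM for Psmc2. The non-ATPase subunits of the base ran from 197 ± 14.9 RPKM for the ubiquitin receptor Psmd4 to 77.2 ± 5.74 RPKM for the scaffold subunit Psmd1, and those of the lid from 168 ± 7.92 RPKM for Psmd7 to 53.2 ± 2.72 RPKM for Psmd11. These ranges changed with the length used: with the length of the principal transcript in place of all annotated exons they were 11.5-fold in the alpha ring, 4.22-fold in the beta ring, 3.02-fold among ATPases, 2.31-fold in the base and 2.76-fold in the lid. Psmd1 shares its strand and position with the genes Gm21972 and Gm37914 and overlaps Htr2b on the opposite strand. The highest of these overlapping genes had a mean of 178 RPKM, above that of Psmd1. Reads over shared exons cannot be told apart, which limits every Psmd1 value given here.

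The remaining members were rarer. The chaperones that help assemble the regulatory particle were at 24.7 ± 2.55 RPKM (Psmd10) and 8.98 ± 0.632 RPKM (Psmd9). Psmb10 was at 3.74 ± 0.323 RPKM and Psmb9 at 1.78 ± 0.714 RPKM in the controls, far under their constitutive counterparts Psmb7 and Psmb6. Psmb8 had 0 reads in 9 of the 12 libraries and was never above 0.356 RPKM. Psma8, the alpha subunit of the testis, ran from 0.304 to 2.15 RPKM over all libraries, and Psmb11, the beta subunit of the thymus cortex, was never above 0.37 RPKM. Of the 39 members 37 passed the filter of at least 1 RPKM in at least 2 libraries at E3.5 + 4 h and 36 at the later times. Psmb8 and Psmb11 never passed, and Psma8 passed only in fits that held the p38-MAPKi libraries of E3.5 + 4 h.

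**Figure D1:**
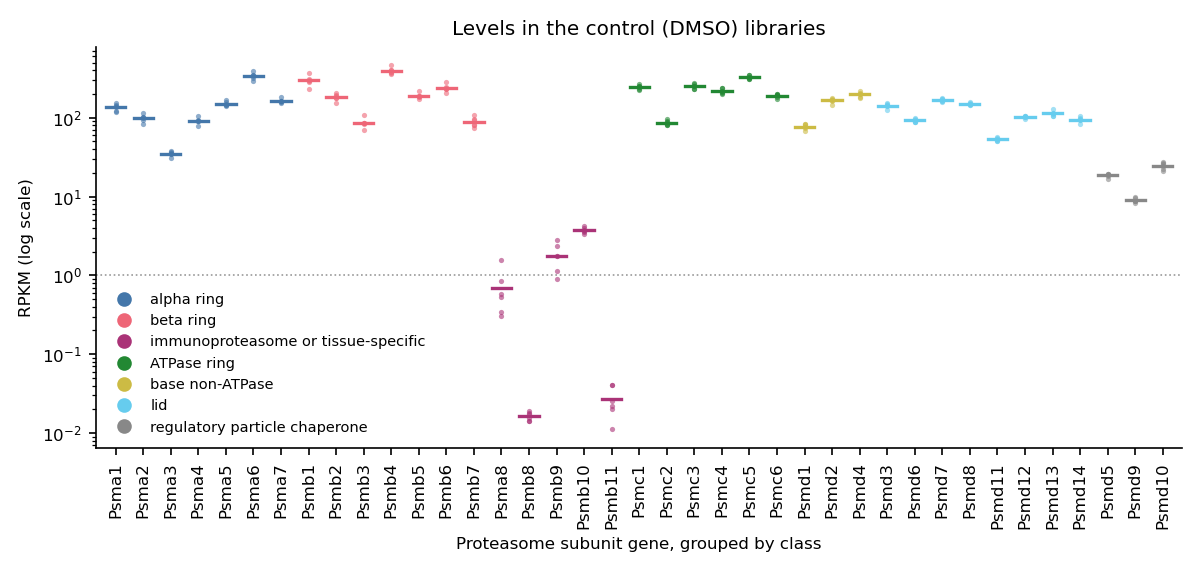
Level of each of the 39 subunit genes in the 6 control libraries (RPKM, log axis), with points for libraries, bars for means and colors for subunit classes; the dotted line marks 1 RPKM. The constitutive subunits sit between 30.4 RPKM and 463 RPKM, the chaperones lower, and the immunoproteasome and tissue-specific subunits at the bottom.

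Promoter sequence was available for 32 of the 39 genes, as 34 windows of 300 bases around a transcription start (250 bases before it and 50 from it on; RefSeq, GRCm38.p6). The windows below belong to Psmb10 and Psma5, which passed the test in a p38-MAPKi comparison, to Psmb9, the immunoproteasome partner of Psmb10, to Psmb6, the constitutive counterpart of Psmb9, and to the ATPase Psmc2. They lie at chr8:105938343-105938642 on the minus strand (Psmb10), chr17:34187281-34187580 on the minus strand (Psmb9), chr11:70525107-70525406 on the plus strand (Psmb6), chr3:108256676-108256975 on the plus strand (Psma5) and chr5:21785025-21785324 on the plus strand (Psmc2). Capitals mark matches, on either strand, to 5 motifs: the CCAAT box (CCAAT), the core of the antioxidant response element (TGACNNNGC), an ETS motif (CCGGAAGT), the interferon-stimulated response element (GAAA, any 2 bases and GAAA again) and the interferon-gamma activated site (TTCNNNGAA).
Psmb10: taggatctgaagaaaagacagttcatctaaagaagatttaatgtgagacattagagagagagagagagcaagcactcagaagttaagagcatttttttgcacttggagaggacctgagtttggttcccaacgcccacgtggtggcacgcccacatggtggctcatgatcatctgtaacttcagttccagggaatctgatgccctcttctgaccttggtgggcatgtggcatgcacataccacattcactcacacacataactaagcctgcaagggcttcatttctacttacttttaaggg
Psmb9: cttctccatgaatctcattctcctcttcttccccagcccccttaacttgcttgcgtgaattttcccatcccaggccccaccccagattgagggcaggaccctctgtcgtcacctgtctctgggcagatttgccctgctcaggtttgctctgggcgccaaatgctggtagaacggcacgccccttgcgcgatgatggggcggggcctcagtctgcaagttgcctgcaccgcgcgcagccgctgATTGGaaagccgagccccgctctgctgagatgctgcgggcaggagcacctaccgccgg
Psmb6: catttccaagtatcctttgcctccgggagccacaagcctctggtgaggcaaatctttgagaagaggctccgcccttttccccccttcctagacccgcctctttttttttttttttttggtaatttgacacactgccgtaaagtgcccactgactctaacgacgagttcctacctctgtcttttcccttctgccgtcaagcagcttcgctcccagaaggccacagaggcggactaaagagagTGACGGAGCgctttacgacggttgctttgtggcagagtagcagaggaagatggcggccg
Psma5: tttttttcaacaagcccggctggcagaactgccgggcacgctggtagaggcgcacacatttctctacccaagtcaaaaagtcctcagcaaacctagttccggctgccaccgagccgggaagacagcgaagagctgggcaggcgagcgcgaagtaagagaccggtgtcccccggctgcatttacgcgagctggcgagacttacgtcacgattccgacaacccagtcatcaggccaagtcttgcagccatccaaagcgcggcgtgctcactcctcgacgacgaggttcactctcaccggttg
Psmc2: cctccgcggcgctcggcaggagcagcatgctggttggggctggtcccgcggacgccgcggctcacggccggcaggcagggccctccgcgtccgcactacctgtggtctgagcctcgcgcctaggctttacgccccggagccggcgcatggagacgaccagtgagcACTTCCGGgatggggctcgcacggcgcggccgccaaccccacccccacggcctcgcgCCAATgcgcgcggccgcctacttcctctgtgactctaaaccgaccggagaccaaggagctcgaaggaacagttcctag

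The windows of Psmb10 and Psma5 held none of these motifs. That of Psmb9 held a CCAAT box on the other strand, that of Psmb6 the antioxidant response element core and that of Psmc2 a CCAAT box and an ETS match. A further start of Psmc2, with its window at chr5:21786497-21786796, also had an ETS match. Among the 34 member windows the ETS motif occurred in 20.6%, against 3.89% of all 32851 windows, in Psma6, Psmc1, Psmc2, Psmd6, Psmd12 and Psmd13. The antioxidant response element core was found in 14.7% against 12.4%, in Psmb5, Psmb6, Psmc6, Psmd9 and Psmd12. The CCAAT box occurred in 38.2% against 37.4%. The interferon-stimulated response element was found in 8.82% against 3.44%, in Psmb3, Psmd4 and Psmd9, and the interferon-gamma activated site in 5.88% against 8.3%, in Psmb8 and Psmd2. A TATA box (TATAAA) occurred in 11.8% against 13.6%, and the cAMP response element (TGACGTCA) in 0% against 1.79%. Shorter motifs can lie inside longer ones, and a match says only that the letters are present.

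Without the inhibitor no subunit gene passed the test of a difference between time points. None of 36 tested members passed an adjusted p of 0.05 (limma on the log2 values, Benjamini-Hochberg adjustment over all tested genes) from + 4 h to + 7 h, where 0.492% of all genes did, from + 7 h to + 10 h (0.0552% of all genes) or from + 4 h to + 10 h (0.471%). An unadjusted p under 0.05 was likewise reached by 0 members in each of these limma comparisons. Of all tested genes 3.94% were higher and 0.844% lower at that level from + 4 h to + 7 h. The shares were 2.19% and 1.6% from + 7 h to + 10 h, and 13.2% and 2.05% from + 4 h to + 10 h. Voom on recovered read counts called 0 members as well, beside 0.0838%, 0.083% and 4.39% of all genes. The 2 control libraries of + 7 h pulled in opposite directions. From + 7 to + 10 h the member median was 0.12 without replicate 1, with 31 higher and 5 lower. It was −0.14 without replicate 2, with 4 higher and 32 lower. The median member change from + 4 h to + 10 h was 0.02 on the log2 scale, with 20 members higher and 16 lower, beside 0.14 for all tested genes. With each library centered on its median gene the member median became −0.11 with 34 of 36 lower, so that the sign depends on the scaling. In that setting 0 members passed the test, beside 0.342% of all genes.

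From + 4 h to + 10 h the control differences ran from that of Psmb7 to that of Psmb9. Psmb9 was at 1.76 and 1.12 RPKM at + 4 h, 2.8 and 0.901 RPKM at + 7 h, and 2.34 and 1.76 RPKM at + 10 h. Its replicates overlapped between all neighboring times, and the + 4 to + 10 h difference was 0.53 on the log2 scale (SE 0.30; limma adjusted p = 0.422). Psmb7, a catalytic subunit, went from 95.2 and 92.8 RPKM at + 4 h to 81.7 and 81.8 RPKM at + 10 h, a log2 difference of −0.20 (SE 0.10; limma adjusted p = 0.362). From + 4 to + 7 h the lowest difference was that of Psma3 (−0.12, SE 0.18), at 34.6 and 38 RPKM and then 36.9 and 30.4 RPKM, and from + 7 to + 10 h that of Psmd9 (−0.14, SE 0.13). Psmd9 was at 8.76 and 9.5 RPKM at + 4 h, 9.96 and 8.71 RPKM at + 7 h, and 8.21 and 8.75 RPKM at + 10 h, so its replicates overlapped between + 7 h and + 10 h.

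After 4 h of p38-MAPKi only Psmb10 among 37 tested members passed the test, in the higher direction, while 0.909% of all tested genes passed. Of the 37 members 36 lay above their control, with a median of 0.21 on the log2 scale (15.9%), beside 0.07 for all tested genes, of which 60% were higher. At an unadjusted p under 0.05 1 of 37 members (2.7%) was higher, against 6.39% of all tested genes. Both p38-MAPKi libraries lay above both control libraries in 21 of 37 members, against 26.8% of all tested genes. The median was 0.23 over the 17 tested core genes and 0.18 over the 20 regulatory genes. With the trend on exon length removed from each library, the member median dropped to 0.08 with 30 higher and 7 lower, and the median of all genes to 0.01. The 2 treated libraries differed. Without p38-MAPKi replicate 1 the member median was 0.35, beside 0.05 for all tested genes. Without p38-MAPKi replicate 2 it was 0.07, beside 0.09 for all tested genes.

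At E3.5 + 7 h most members lay above their controls, while 59.9% of all tested genes lay below. Psmb10 again was the member that passed the test, among 36 tested, while 2.13% of all tested genes did so. Higher at an unadjusted p under 0.05 were 13 of 36 members (36.1%), with 0 lower, against 10.7% of all tested genes that were higher. Among tested genes of at least 10 RPKM that share was 15.1%. Both p38-MAPKi libraries exceeded both controls in 27 of 36 members and lay below them in 3. Of all tested genes 23% had both libraries above, and 4236 of 10940 had both below. The member median was 0.37 on the log2 scale (29%), with 32 higher and 4 lower, beside −0.14 for all tested genes. Since the median of all genes was itself below 0, centering each library on its median gene raised the member median to 0.56, with 35 of 36 higher. The number of members that passed ran from 0 with centered libraries to 10 of 36 (27.8%) in the fit of all 12 libraries, where 23.6% of all genes passed. It was 8 (22.2%) with voom on recovered reads, beside 15.7% of all genes.

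At E3.5 + 10 h the direction was the opposite. Psma5 and Psmd7 fell, 2 of 36 tested members where 0.803% of all tested genes passed, and 35 of 36 members lay below their control, the exception being Psmb9. At an unadjusted p under 0.05, 26 of 36 members (72.2%) were lower and 0 higher, against 11.6% of all tested genes that were lower. Among tested genes of at least 10 RPKM, a level that most members exceed, the share was 17.1%. Both p38-MAPKi libraries lay below both controls in 30 of 36 members, against 29.6% of all tested genes. The member median was −0.24 on the log2 scale (−15.3%) beside −0.02 for all tested genes, so the shift was small in each gene but shared by nearly all. The limma standard errors at this time ran from 0.057 to 0.093 except for Psmb9, Psmb10 and Psmd10. Limma draws them toward a trend over all genes, so they do not measure each gene's own replicates alone. The 2 treated replicates were at 99 and 100 RPKM for Psma5 but at 179 and 208 RPKM for Psmb6. The member median was −0.24 with centered libraries and −0.21 with the length trend removed. From 0 members (in the fit of all 12 libraries) to 9 members (25%, with voom, beside 4.62% of all genes) passed under the alternatives.

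**Figure D2:**
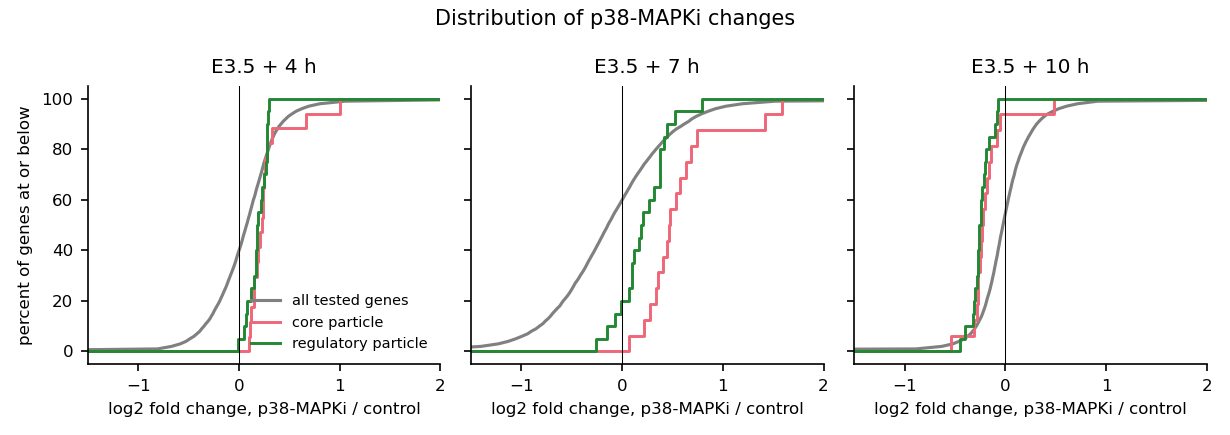
Cumulative distribution of log2 fold changes (p38-MAPKi against control) at each time, for all tested genes, core particle genes and regulatory particle genes; the vertical axis gives the percent of genes at or below a change. At + 7 h the core curve lies to the right of the regulatory curve, and at + 10 h both lie left of 0 for nearly all members.

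Of the immunoproteasome subunits Psmb10 passed the test and Psmb9 did not. Psmb10 (chr8:105935735-105938444, minus strand, GRCm38), the inducible counterpart of Psmb7, was at 3.5 and 3.66 RPKM in control and at 5.88 and 8.65 RPKM under p38-MAPKi at + 4 h. At + 7 h it was at 4.03 and 3.74 RPKM in control and 15.1 and 9.08 RPKM under p38-MAPKi, and at + 10 h at 4.19 and 3.32 RPKM against 3.36 and 2.85 RPKM. Both treated libraries were thus above both controls at + 4 h and + 7 h, and the groups overlapped at + 10 h. Psmb10 rose by 1.0 on the log2 scale at + 4 h (SE 0.26; limma adjusted p = 0.0185) and by 1.59 at + 7 h (SE 0.27; limma adjusted p = 0.0456). These correspond to 1.99-fold and 3.02-fold higher levels, from group means of 3.58 ± 0.115 to 7.27 ± 1.96 RPKM and of 3.89 ± 0.202 to 12.1 ± 4.28 RPKM (SD, n = 2). At + 10 h the difference was −0.27 (SE 0.17; limma adjusted p = 0.424).

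The Psmb10 values rested on 102 to 319 reads per library. The Psmb10 call at + 4 h was lost under 10 of the alternative settings, among them the fit over all 12 libraries, voom and leaving out either control library. Its log2 change stayed between 0.72 and 1.27 when a library was left out. The + 7 h call was lost when limma ran without its mean-variance trend (adjusted p = 0.158), with centered libraries (0.0694), with the length trend removed (0.104), without the filter on low genes (0.0801) and without control replicate 2 (0.281).

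Psmb9 (chr17:34181988-34187764, minus strand), the inducible counterpart of Psmb6, was at 2 and 2.45 RPKM under p38-MAPKi at + 4 h against 1.76 and 1.12 RPKM. At + 7 h it was at 5.15 and 3.51 RPKM against 2.8 and 0.901 RPKM, and at + 10 h at 3.88 and 2.06 RPKM against 2.34 and 1.76 RPKM. Treated libraries were above both controls at + 4 h and + 7 h and overlapped them at + 10 h. The log2 differences were 0.66 (SE 0.39; limma adjusted p = 0.624), 1.42 (SE 0.50; limma adjusted p = 0.112) and 0.48 (SE 0.32; limma adjusted p = 0.449), none of which passed the test. The + 7 h difference passed with voom (adjusted p = 0.03), but it ranged from 0.61 to 2.24 over the libraries left out, and the + 10 h difference from 0.02 to 0.94. Psmb9 overlaps Tap1, a peptide transporter gene on the opposite strand at 5.47 RPKM, and the strand setting of the counting is not given in the sources used here.

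Psmb8, the inducible counterpart of Psmb5, had reads in 3 libraries, all under p38-MAPKi: 17 in replicate 2 at + 7 h and 4 in each replicate at + 10 h. It was not tested. Psma8 was at 0.582 and 1.09 RPKM under p38-MAPKi and 0.345 and 1.55 RPKM in control at + 4 h, and the groups overlapped. Psmb11 stayed between 0.0111 and 0.37 RPKM, which is at most 34 reads.

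Immunoproteasome subunits are abundant in leukocytes, and such cells were looked for through 6 marker genes. Of these 5 were under 1 RPKM in every library, and the defining marker Ptprc (CD45) had no read in any library. Only Cd74 was above 1 RPKM, from 0.991 to 7.2 RPKM. The summed level at + 4 h was 1.21 to 4.29 RPKM under p38-MAPKi and 2.46 to 2.9 RPKM in control, and at + 7 h 3.16 to 7.41 RPKM and 4.86 to 7.25 RPKM, so the groups overlapped at both times. At + 10 h it was lower under p38-MAPKi, at 2.71 to 3.59 RPKM against 4.04 to 6.73 RPKM. Cd74 differed by −0.82 on the log2 scale at that time (limma adjusted p = 0.164).

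The constitutive catalytic subunits gave smaller differences, and none passed the test. Psmb5, which carries the chymotrypsin-like site, was at 183 and 244 RPKM under p38-MAPKi against 188 and 184 RPKM at + 4 h, at 309 and 253 RPKM against 217 and 173 RPKM at + 7 h, and at 155 and 177 RPKM against 187 and 188 RPKM at + 10 h. The groups overlapped at + 4 h and lay apart at + 7 h (higher under p38-MAPKi) and + 10 h (lower). The log2 differences were 0.18, 0.53 and −0.18 (limma adjusted p = 0.819, 0.127 and 0.264), and those of the first 2 times ran from −0.02 to 0.39 and from 0.36 to 0.69 over the libraries left out.

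Psmb6, which carries the caspase-like site, was at 264 and 337 RPKM against 231 and 246 RPKM at + 4 h, at 443 and 356 RPKM against 280 and 203 RPKM at + 7 h, and at 179 and 208 RPKM against 235 and 230 RPKM at + 10 h. Its groups lay apart at each time, above control at + 4 h and + 7 h and below it at + 10 h. The log2 difference was 0.33 at + 4 h (limma adjusted p = 0.659), 0.74 at + 7 h (SE 0.22; limma adjusted p = 0.0756) and −0.27 at + 10 h (limma adjusted p = 0.152). At + 7 h it passed among genes of at least 10 RPKM (limma adjusted p = 0.036), in the 12-library fit (0.0163) and with voom (adjusted p = 0.00864). Over the libraries left out the + 7 h difference of Psmb6 ran from 0.51 to 0.97.

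Psmb7, which carries the trypsin-like site, was at 95.4 and 120 RPKM against 95.2 and 92.8 RPKM at + 4 h, at 133 and 115 RPKM against 107 and 74.7 RPKM at + 7 h, and at 63.2 and 72.1 RPKM against 81.7 and 81.8 RPKM at + 10 h. It followed the same order as Psmb6, with differences of 0.19, 0.47 and −0.28 on the log2 scale (limma adjusted p = 0.811, 0.18 and 0.134). Leaving out a library moved these to between 0.02 and 0.35 at + 4 h and between 0.21 and 0.73 at + 7 h. Psmb7 overlaps Nek6 on the opposite strand (9.78 RPKM).

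**Figure D3:**
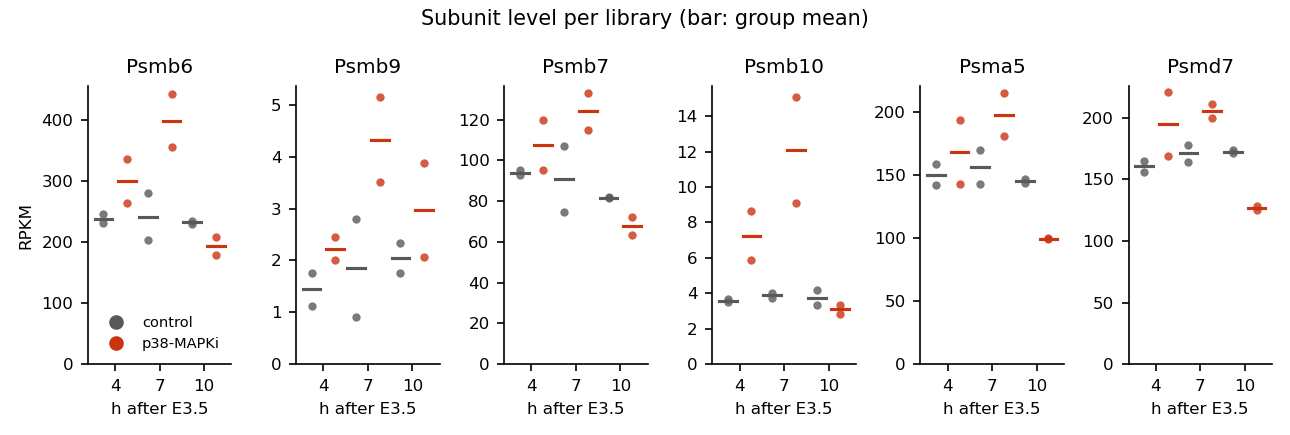
Level (RPKM, each axis from 0) of 6 subunit genes in each library at 4, 7 and 10 h after E3.5; points are libraries and bars the means of 2. Psmb10 and Psmb9 are highest under p38-MAPKi at + 7 h, and Psma5 and Psmd7 are at their lowest under p38-MAPKi at + 10 h.

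Of the other core subunits, the structural beta subunits Psmb1, Psmb3 and Psmb4 also lay above control at + 7 h with an unadjusted p under 0.05. Psmb4 was at 629 and 579 RPKM against 463 and 355 RPKM, and Psmb3 at 132 and 134 RPKM against 107 and 69.2 RPKM. Over the 7 constitutive beta subunits the + 7 h median was 0.57 on the log2 scale, 7 of 7 were higher and 5 had an unadjusted p under 0.05. Of all tested genes 40.1% were higher, and 10.7% were higher at that level. At + 10 h the median of the beta subunits was −0.20, with 4 of 7 lower at that level, beside 11.6% of all tested genes.

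The alpha ring, which gates the barrel, had a + 7 h median of 0.36, from 0.07 for Psma1 to 0.48 for Psma2. An unadjusted p under 0.05 was reached by 2 of its 7 members, beside 10.7% of all tested genes that were higher. At + 10 h the median was −0.23 and 6 of 7 were lower at an unadjusted p under 0.05, beside 11.6% of all tested genes. Psma6, the most abundant alpha subunit, was at 447 and 448 RPKM against 389 and 293 RPKM at + 7 h and at 278 and 291 RPKM against 346 and 318 RPKM at + 10 h. Psma3, the exception at + 10 h, was at 31.5 and 36.6 RPKM against 35.5 and 35 RPKM.

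Psma5 (chr3:108256926-108279974, plus strand) was the alpha subunit that fell at + 10 h. It was at 99 and 100 RPKM under p38-MAPKi and at 147 and 144 RPKM in control, with no overlap. At + 7 h it had been at 215 and 181 RPKM against 170 and 143 RPKM, and at + 4 h at 143 and 194 RPKM against 142 and 159 RPKM. The + 10 h change was −0.54 on the log2 scale (SE 0.058; limma adjusted p = 0.0367), from 145 ± 2.05 to 99.7 ± 1.06 RPKM (SD, n = 2). The call held whichever of the 4 libraries was left out. It was lost without limma's trend (adjusted p = 0.149), without the filter (0.113) and in the 12-library fit, where all times share one estimate of the spread (0.588).

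In the regulatory particle the members of the ATPase ring lay close together at both later times. The + 7 h median of the 6 ATPases was 0.20 on the log2 scale with 0 at an unadjusted p under 0.05 and 0 passing in limma. Of all tested genes 10.7% were higher and 17.7% lower at an unadjusted p under 0.05. The + 10 h median was −0.28 with 6 of 6 lower at that level, beside 11.6% of all tested genes. Psmc5, the most abundant ATPase, was at 411 and 413 RPKM against 350 and 311 RPKM at + 7 h and at 240 and 267 RPKM against 346 and 323 RPKM at + 10 h, where the log2 difference was −0.40 (SE 0.075; limma adjusted p = 0.0727). Psmc2 was at 99.9 and 102 RPKM against 95.2 and 81.9 RPKM at + 7 h and at 64.2 and 67.9 RPKM against 84.1 and 79.8 RPKM at + 10 h. Both ATPases had treated libraries above the controls at + 7 h and below them at + 10 h.

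The base subunits that are not ATPases differed among themselves at + 7 h. Psmd4, a ubiquitin receptor, was at 205 and 267 RPKM against 178 and 208 RPKM at + 4 h, at 272 and 269 RPKM against 216 and 182 RPKM at + 7 h, and at 153 and 177 RPKM against 200 and 197 RPKM at + 10 h. Its groups overlapped at + 4 h and lay apart at the later times, with log2 differences of 0.28, 0.45 and −0.27 (limma adjusted p = 0.715, 0.146 and 0.146). Psmd2, a scaffold of the base that receives ubiquitin shuttles, was at 142 and 150 RPKM against 173 and 176 RPKM at + 7 h and at 138 and 143 RPKM against 168 and 169 RPKM at + 10 h. It was below control at both times, and its + 7 h difference of −0.26 (SE 0.17; limma adjusted p = 0.331) was the lowest of any member. Psmd1 was at 78.7 and 78.1 RPKM against 75.6 and 74.1 RPKM at + 7 h and at 64.8 and 70.3 RPKM against 79.9 and 82.8 RPKM at + 10 h.

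In the lid, Psmd14, the deubiquitinase that removes ubiquitin chains before degradation, was at 96 and 117 RPKM against 93.3 and 95 RPKM at + 4 h, at 128 and 114 RPKM against 105 and 82.3 RPKM at + 7 h, and at 89 and 89.7 RPKM against 99 and 92.6 RPKM at + 10 h. The log2 differences of 0.17, 0.38 and −0.10 did not pass the test (limma adjusted p = 0.828, 0.211 and 0.426). Psmd7 (chr8:107580381-107588464, minus strand), the partner of Psmd14, fell at + 10 h. It was at 125 and 128 RPKM under p38-MAPKi and 171 and 174 RPKM in control at that time, after 211 and 200 RPKM against 178 and 164 RPKM at + 7 h and 169 and 221 RPKM against 156 and 165 RPKM at + 4 h. Treated libraries were above both controls at the earlier times and below both at + 10 h.

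The + 10 h change of Psmd7 was −0.45 on the log2 scale (SE 0.058; limma adjusted p = 0.0398), from 173 ± 2.41 to 126 ± 1.90 RPKM (SD, n = 2). The call was lost without control replicate 2 (adjusted p = 0.0694), without p38-MAPKi replicate 1 (0.0566), without limma's trend (0.162), without the filter (0.113) and in the 12-library fit (0.598). Psmd11, the lid subunit of lowest level, was at 57.1 and 56.4 RPKM against 55.4 and 50.3 RPKM at + 7 h and at 45 and 48.9 RPKM against 54.3 and 56.7 RPKM at + 10 h. Over the 8 lid subunits the median was 0.19 at + 7 h, with 1 higher at an unadjusted p under 0.05, beside 10.7% of all tested genes. At + 10 h it was −0.22, with 6 of 8 lower at that level, beside 11.6% of all tested genes.

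The chaperones of the regulatory particle are not part of the finished proteasome. Psmd9 was at 19.1 and 13.6 RPKM under p38-MAPKi against 9.96 and 8.71 RPKM at + 7 h, a log2 difference of 0.79 (limma adjusted p = 0.0683), and at 7.91 and 8.22 RPKM against 8.21 and 8.75 RPKM at + 10 h. Psmd10 was at 23.8 and 24.1 RPKM against 22.2 and 26.1 RPKM at + 4 h, where its difference of −0.01 (SE 0.21) was the lowest of any member, and at 37.1 and 32.1 RPKM against 27.4 and 24.2 RPKM at + 7 h. Both chaperones had treated libraries above the controls at + 7 h, and both overlapped the controls at + 10 h. Psmd5 differed by −0.15 at + 7 h and by −0.28 at + 10 h.

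**Figure D4:**
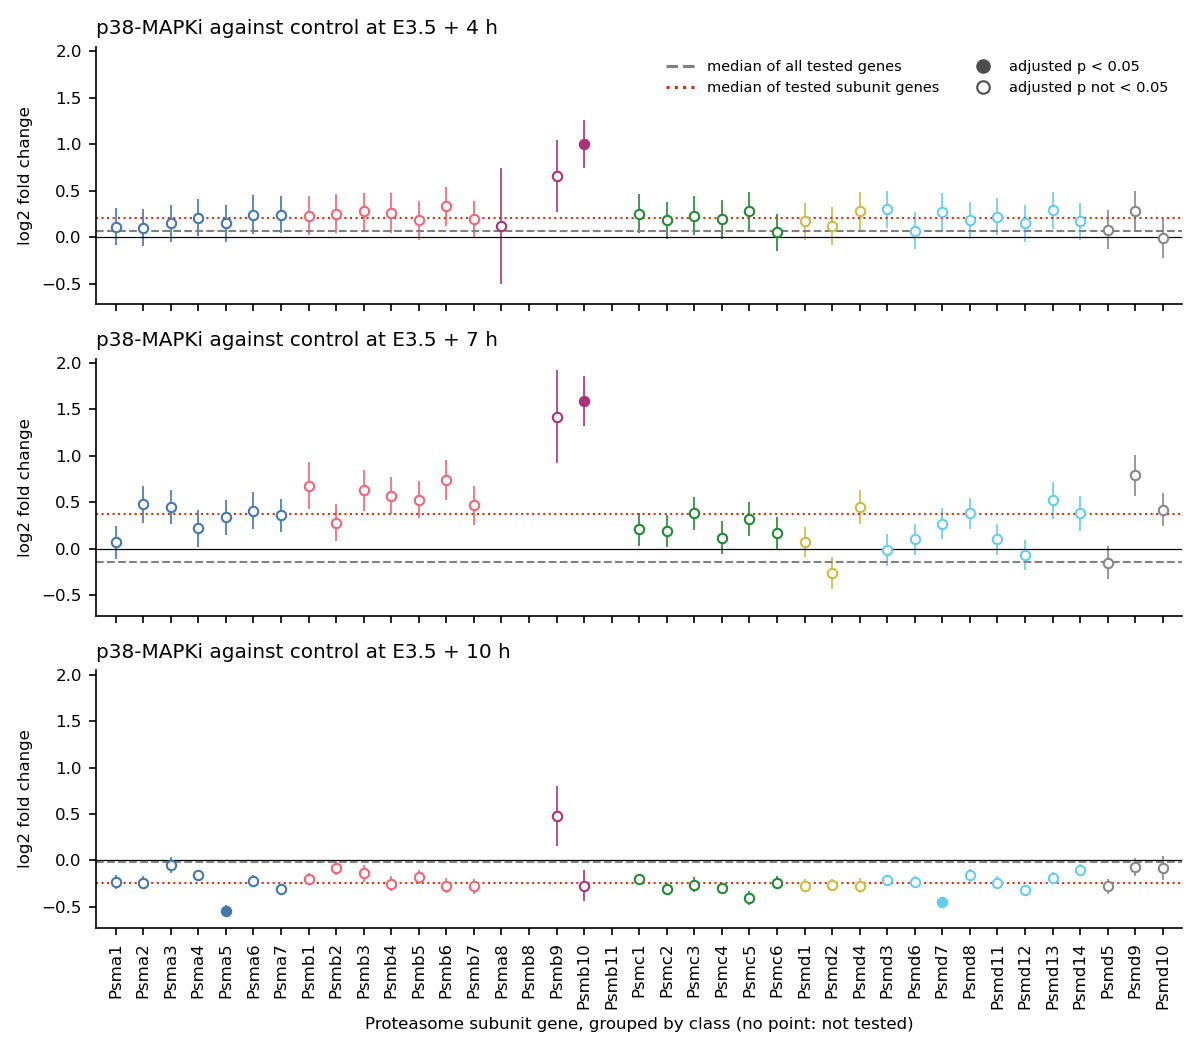
Log2 fold change with its standard error for each tested subunit gene at the 3 times, grouped and colored by class; filled points have an adjusted p under 0.05 (limma), and the lines give the medians of the members and of all tested genes. Psmb10 is filled at + 4 h and + 7 h, and Psma5 and Psmd7 at + 10 h, where almost every point lies below 0.

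Core and regulatory genes were compared within each library, over the 14 constitutive core subunits and the 17 regulatory subunits that are not chaperones. The mean log2 RPKM of the core subunits was 7.20 and 7.25 in control and 7.27 and 7.60 under p38-MAPKi at + 4 h, 7.43 and 7.01 against 7.72 and 7.61 at + 7 h, and 7.22 and 7.18 against 6.90 and 7.04 at + 10 h. That of the regulatory subunits was 7.05 and 7.18 against 7.20 and 7.43 at + 4 h, 7.23 and 7.08 against 7.35 and 7.35 at + 7 h, and 7.17 and 7.13 against 6.85 and 6.93 at + 10 h. In both particles p38-MAPKi libraries exceeded the controls at the first 2 times and lay below them at + 10 h. The core minus regulatory difference was 0.15 and 0.07 in control and 0.07 and 0.17 under p38-MAPKi at + 4 h, 0.20 and −0.06 against 0.37 and 0.26 at + 7 h, and 0.04 and 0.05 against 0.05 and 0.11 at + 10 h. Thus the particles lay furthest apart under p38-MAPKi at + 7 h, and this difference was not tested. The member median at + 7 h was 0.47 over 16 tested core genes, all higher, and 0.20 over 20 regulatory genes, of which 4 were lower (Psmd2, Psmd3, Psmd5 and Psmd12). At + 10 h the medians were −0.22 and −0.25. All 39 genes together took 1.25% to 1.51% of the reads in control libraries, 1.42% and 1.71% under p38-MAPKi at + 4 h, 1.79% and 1.69% at + 7 h, and 1.10% and 1.19% at + 10 h.

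**Figure D5:**
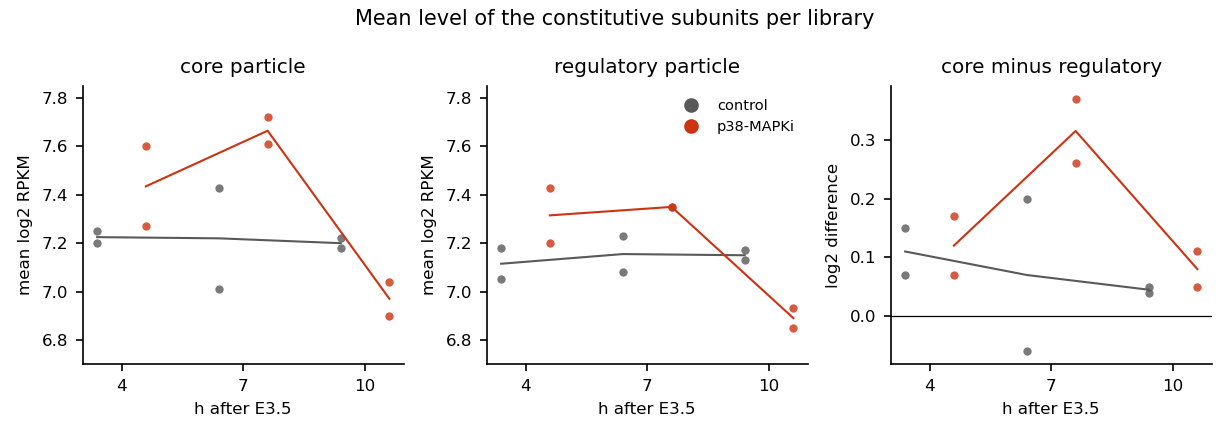
Mean log2 RPKM of the 14 constitutive core subunits and the 17 regulatory subunits, and their difference, in each library; points are libraries and lines join group means, with the vertical axes not starting at 0. Control means stay near 7.2, while p38-MAPKi libraries lie highest at + 7 h for the core particle and lowest at + 10 h for both.

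The effect of p38-MAPKi was also compared between times. From + 4 h to + 7 h none of 37 tested members passed the limma test of the difference (0.00884% of all tested genes passed), 0 had an unadjusted p under 0.05, and voom called 0. From + 7 h to + 10 h none of 36 passed in limma either (0.00877%), but 27 of 36 had an unadjusted p under 0.05 in the lower direction. That share was 10.4% among all tested genes and 17.4% among those of at least 10 RPKM. Voom called 12 members (33.3%, beside 7.79% of all genes). All 36 differences were below 0, as were 40.3% of those of all tested genes and 47.9% of those of genes of at least 10 RPKM. The member median was −0.58 on the log2 scale, beside 0.15 for all tested genes and 0.03 for those of at least 10 RPKM. The members ranged from −1.86 for Psmb10 (SE 0.35; limma adjusted p = 0.069) to −0.01 for Psmd2. The + 7 h libraries enter both of these comparisons. Without control replicate 1 at + 7 h limma called 20 members in the second (55.6%, beside 7.53% of all genes), and without p38-MAPKi replicate 2 at + 7 h it called 12 (33.3%, beside 25.8%). For the first, the member median was 0.16 with 27 higher and 10 lower, but −0.02 with 17 higher and 20 lower without p38-MAPKi replicate 1 at + 4 h.

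Averaged over the 3 times, the effect passed the test for Psmb10 alone among 37 tested members (10.1% of all tested genes passed). Psmb10 rose by 0.77 on the log2 scale (SE 0.15; limma adjusted p = 0.0134), although its sign at + 10 h differed from that at the earlier times. Psmb9 had the highest average, 0.85 (SE 0.28; limma adjusted p = 0.0712), and Psmd2 the lowest, −0.13 (SE 0.065; limma adjusted p = 0.183). The member median was 0.11, 0.18 over core and 0.03 over regulatory genes, and 0.06 to 0.17 over the libraries left out. Without control replicate 2 at + 10 h the adjusted p of Psmb10 was 0.0506 and no member passed, whereas without control replicate 1 at + 7 h 5 members did (13.5%, beside 12.4% of all genes in that fit).

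Exon length moved with the p38-MAPKi comparisons. Across all tested genes Spearman's rho between length and log2 change was −0.365 at + 4 h, −0.461 at + 7 h and 0.060 at + 10 h (genes are not independent replicates). The members are shorter than most genes, with a median of 2804 bases at + 7 h against 3900.5 bases for all tested genes. Among the 36 members themselves rho was −0.19 at + 7 h. After removal of the length trend the + 7 h member median was 0.39, with 33 higher and 3 lower, beside 0.01 for all genes. The medians of core and regulatory genes were 0.52 and 0.22. In that setting 0 of 36 members and 0 of 10914 genes passed the test. The sum of the primitive endoderm markers was lower under p38-MAPKi at + 7 h, at 116 to 122 RPKM against 174 to 189 RPKM in control. The trophectoderm sum overlapped, at 2095 to 2229 RPKM against 1851 to 2434 RPKM. Of its genes Gata3 (−0.68 on the log2 scale), Tead4 (−0.65), Cdx2 (−0.49), Eomes (−0.39) and Tfap2c (−0.18) were lower. Krt8 (0.08) and Krt18 (0.16) were higher. At + 10 h the epiblast sum was lower, at 556 to 585 RPKM against 618 to 624 RPKM. The part of these marker differences in the subunit differences was not tested.

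Other genes of the pathway were read from a list of subunits outside the symbol pattern, assembly factors, activators, transcription factors, bound enzymes and ubiquitin genes, of which 36 were tested at each time. None passed the limma test at a single time. At + 4 h 4 genes (11.1%) had an unadjusted p under 0.05, all higher, where 6.39% of all tested genes were higher at that level. The list median was 0.14, beside 0.07 for all tested genes. At + 7 h 8 (22.2%) were higher and 7 (19.4%) lower at that level, where 10.7% of all tested genes were higher and 17.7% lower, and the list median of −0.15 was near the −0.14 of all genes. At + 10 h 0 were higher and 12 (33.3%) lower, beside 11.6% of all tested genes lower, with a median of −0.10.

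At + 7 h the assembly factors lay above control in 5 of 5 cases, with a median of 0.49 on the log2 scale. Of all tested genes 40.1% lay above control, with a median of −0.14. Psmg3 differed by 0.76 (limma adjusted p = 0.0521), and Pomp, which helps assemble the core particle, by 0.66 (limma adjusted p = 0.0729). Sem1, a small lid subunit, differed by 1.07 (limma adjusted p = 0.0537), and Psme2, a subunit of the 11S activator that goes with the immunoproteasome, by 0.85 (limma adjusted p = 0.11). Of the bound enzymes and shuttles 10 of 13 (76.9%) lay below control at + 7 h, beside 59.9% of all tested genes, among them the shuttle Ubqln2 with −0.60 (limma adjusted p = 0.0677), and the ATP-independent activator Psme4 differed by −0.63 (limma adjusted p = 0.0772). The transcription factor Nfe2l1, which drives subunit genes when proteasomes are inhibited, differed by −0.29 at + 7 h (limma adjusted p = 0.296) and by −0.04 at + 10 h (limma adjusted p = 0.834). Averaged over the times 2 of 37 listed genes passed (5.41%, under the 10.1% of all tested genes), both lower: Ubqln2 fell by 0.38 on the log2 scale (SE 0.069; limma adjusted p = 0.0112) and AI314180, the former symbol of the proteasome adaptor Ecpas, fell by 0.33 (SE 0.095; limma adjusted p = 0.0473).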

How the data were processed

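Poly(A) RNA of 12 pools of 30 mouse blastocysts was sequenced as 50-base single-end reads from strand-marking libraries. The authors trimmed reads with Trim Galore 0.4.1, mapped them to GRCm38 with HISAT2 2.0.5 and deposited log2 RPKM values per gene made in SeqMonk, with a gene without a read written as 0.9 read. The deposited unit is log2 RPKM, so limma 3.58.1 (R 4.3.3; lmFit, eBayes with trend) was run on the log2 values for each comparison on its own libraries, over genes of at least 1 RPKM in at least 2 libraries, with Benjamini-Hochberg adjustment over all tested genes and a threshold of 0.05. The scripts were tested on simulated data. Totals of 11242313 to 24457312 reads per library were derived from genes without a read in any library. This used their annotated exon lengths and took their value as 0.9 read. With these totals whole reads were recovered for 34210 genes (tolerance 0.05 read). Groups were taken from the sample titles. P-values rest on the spread between 2 pools per group. In the main fits limma draws this spread toward a trend over all genes. A p-value therefore does not measure the spread of the gene's own replicates alone. The members and the gene lists were chosen with earlier results of these data known. Per-library values are given for the catalytic subunits, their immunoproteasome counterparts, Psmd4, Psmd14, members called or most extreme in a comparison, and the highest and lowest of each class. Alternatives were limma without its trend, centered libraries, a length trend removed by loess (span 0.5), no filter, 10 RPKM, a pseudocount of 1 RPKM, 1 fit of all libraries, a replicate block, each library left out, and, chosen after seeing the data, voom on the recovered read counts.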

Additional observations from a re-analysis of the deposited data

How the results depend on the processing

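In parentheses, where 2 or more members passed, is the share of all genes passing under the same setting. At E3.5 + 4 h the 1 call became 0 with limma without its trend, with centered libraries, with the length trend removed, without the filter, at 10 RPKM (where Psmb10 is not tested), in the fit of all 12 libraries, with the replicate block and with voom, and leaving out each library in turn gave 0 to 1, with a member median of 0.07 to 0.35. At + 7 h the 1 call became 0 without the trend, with centered libraries, with the length trend removed and without the filter, 2 at 10 RPKM (18.6%), 10 in the fit of all libraries (23.6%), 9 with the replicate block (18.5%) and 8 with voom (15.7%), and 0 to 6 leaving out a library: 6 without control replicate 1 (3.62%), 3 without p38-MAPKi replicate 2 (27.4%) and 0 without control replicate 2. The + 7 h median of 0.37 was 0.56 with centered libraries and 0.21 to 0.49 leaving out a library. At + 10 h the 2 calls became 0 without the trend, without the filter and in the fit of all libraries, 5 at 10 RPKM (3.22%), 4 with the replicate block (3.74%) and 9 with voom (4.62%), and 1 to 3 leaving out a library, 1 without control replicate 2 or p38-MAPKi replicate 1; the median was −0.21 with the length trend removed and −0.28 to −0.18 leaving out a library. For the average over times the 1 call became 0 at 10 RPKM, 3 with the block (12.2%), 2 with voom (14.9%) and 0 to 5 leaving out a library (12.4% at 5). For the + 10 h minus + 7 h effect the 0 calls of limma became 7 at 10 RPKM (9.97%), 8 with the block (5.35%), 12 with voom (7.79%) and 0 to 20 leaving out a library (7.53% at 20). In the control series the median from + 7 to + 10 h was −0.14 to 0.12 leaving out a library, and that from + 4 to + 10 h was −0.11 with centered libraries and −0.13 with the length trend removed. Of the named values, Psmb5 at + 4 h was −0.01 with the length trend removed and −0.02 to 0.39 leaving out a library, Psmd10 at + 4 h −0.12 to 0.11, Psma3 from + 4 to + 7 h in control −0.25 to 0.02, Psmb9 over the same step −0.64 to 0.99, and Psmb9 from + 7 to + 10 h in control −0.46 to 1.17. Of the other alternatives for named values 455 kept direction and side of the threshold, 20 passed it newly and 24 no longer did; the causes were not tested. The replicate numbers carry no shared source in the labels: correlations of replicate differences between groups were 0.01, 0.17 and 0.12 between treatment arms at + 4, + 7 and + 10 h, so the block describes a number only. Psmb10 rested on 102 to 319 reads per library.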

Other observations

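Uba6, an enzyme that activates ubiquitin, did not pass the limma test at the later times. Its log2 difference between p38-MAPKi and control was −0.95 after 7 h (limma adjusted p = 0.138) and −0.35 after 10 h (limma adjusted p = 0.188).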
